A study of Mus musculus with 4 samples.

Results

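Natural killer T-like (NKT-like) cells were picked out of the single-cell transcriptomes of T cells sorted from the brain-border tissues of young and aged mice. A cell counted as NKT-like when it held 200 to 7000 genes, at most 5% mitochondrial UMIs (unique molecular identifiers, each standing for 1 captured transcript), a UMI of Cd3d, of Cd3e or of Cd3g, no UMI of Cd8a or Cd8b1, none of Trdc, Tcrg-C1, Tcrg-C2 or Foxp3, and at least 1 UMI of Klrb1c or Zbtb16. The members were thus chosen by their measured UMIs of these genes, which are given as a description and support nothing. This left 59 cells of 4157 T cells, or of 4801 cells in the files. CD4 and CD8 T cells had been sorted by FACS from meninges and choroid plexus of female C57BL/6 mice, young (10 weeks) and aged (18 months), with no further treatment or allele, and the RNA was sequenced with a droplet kit that starts from the 5′ side of the RNA. Cells of 5 mice went into every one of the 4 libraries, so there was 1 library per group. No test across mice was possible, and every interval given here is a 95% interval that covers counting error only. Those of shares and of UMI sums are exact. Those of differences between shares are approximate, built from the exact limits of both shares. The sort also limits the cells as a sample of NKT cells, since those that carry neither CD4 nor CD8 on their surface lie outside it.

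NKT cells are T cells that read lipid antigens held by the MHC class I-like molecule CD1d, most of them through an αβ T-cell receptor (TCR) with an invariant α chain. In the thymus they are set on an innate-like course by the zinc finger factor PLZF, the product of Zbtb16, and they take up NK cell receptors, among them the lectin receptor NKR-P1C, the product of Klrb1c. They settle in tissues, recirculate little, and release IL-4, IFN-γ and other cytokines soon after they are triggered.

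The invariant α chain of mouse NKT cells joins the V segment Trav11, or its near copy Trav11d, to the J segment Traj18. It pairs mostly with β chains that use Trbv13-2, Trbv29 or Trbv1. The α chain segments are shown because the invariant junction is what defines these cells, and because they bear on whether it could be seen here. Both lie on the plus strand of chromosome 14 of GRCm38, Trav11 at chr14:53519303-53519859 and Traj18 at chr14:54200777-54200842, and were read from the GENCODE vM21 transcripts. The spliced Trav11 coding segment of 343 bases differs from that of Trav11d, at chr14:52824357-52824912, only in its last base, marked by the capital, which Trav11d lacks. Its last 150 bases are given.
Trav11: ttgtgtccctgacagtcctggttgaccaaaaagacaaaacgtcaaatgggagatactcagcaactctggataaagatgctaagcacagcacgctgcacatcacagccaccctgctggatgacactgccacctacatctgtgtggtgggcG
Traj18: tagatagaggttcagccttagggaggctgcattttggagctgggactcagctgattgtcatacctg
Every one of the 294 stretches of 50 bases in Trav11 also occurred in another Trav transcript. Over 128 Trav genes the median share of such stretches was 61.7%. A read of that length from Trav11 therefore matches more than 1 annotated transcript. The NKT-like cells carried 1 UMI each of Trav11 and Trav11d in young meninges, 1 of Trav11 in aged meninges and none of Traj18. The invariant junction itself was thus not observed. The name NKT-like describes how the cells were gated, and the gate genes lend it no support. Transcripts outside the gate are described below.

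The NKT-like cells were found mainly in the meninges of young mice, with 39 cells in young meninges, 15 in aged meninges, 2 in young choroid plexus and 3 in aged choroid plexus. They made up 3.81% (2.72 to 5.17) of the 1023 T cells of young meninges and 1.07% (0.597 to 1.75) of the 1408 T cells of aged meninges. In the choroid plexus the share was 0.319% (0.0387 to 1.15) of 627 T cells in the young and 0.273% (0.0563 to 0.796) of 1099 T cells in the aged library. The aged meninges lay 2.75 percentage points below the young (difference -2.75, -4.19 to -1.46), whereas in the choroid plexus the difference of -0.0460 points (-0.902 to 0.547) was within counting error. Meninges exceeded choroid plexus by 3.49 points (2.13 to 4.88) in young and by 0.792 points (0.0909 to 1.51) in aged mice. These are shares of sorted T cells, not cell numbers, and whether they differ between mice of 1 group was not measured.

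The gate depends on depth, because a cell with more UMIs has more chance to show 1 of Klrb1c or Zbtb16. The median NKT-like cell held 3464 UMIs in young and 2545 in aged meninges, against 3050 and 2135 in the other gated T cells, which met the same limits but had no UMI of either gate gene. When every cell was thinned to 1000 UMIs before the gate was applied, 21 of 965 cells of young meninges (2.18%) and 11 of 1324 of aged meninges (0.831%) passed, a difference of -1.35 points (-2.55 to -0.295). In the choroid plexus 1 of 580 and 0 of 1038 cells then passed, the latter allowing a share of up to 0.355%. The order of the meningeal libraries was therefore the same at 1 fixed depth, with a smaller gap. Thinning also removes UMIs of the genes that exclude a cell, such as Cd8a. Gated T cells went from 696 of 1023 to 751 of 965 T cells in young meninges. In aged meninges they went from 947 of 1408 to 1024 of 1324. The thinned gate can thus take in cells that the full-depth gate leaves out, and their part in the difference was not tested.

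**Figure D1:**
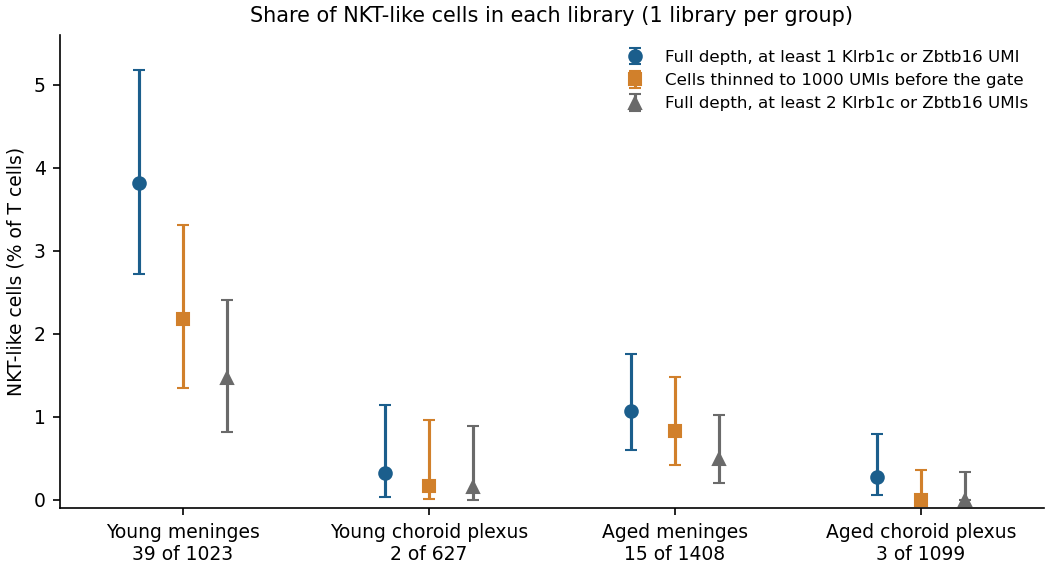
NKT-like cells as a percentage of T cells in each library, with exact 95% binomial intervals that cover counting error, for the gate at full depth, after thinning to 1000 UMIs and with at least 2 gate UMIs. Young meninges lies highest under each of the 3 settings, at 3.81, 2.18 and 1.47%, and the choroid plexus libraries lie at 0.319% or less.

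Klrb1c, on the minus strand of chromosome 6 (chr6:128778485-128789215), was the gate gene in most of the cells. It alone brought in 38 of the 59 cells, Zbtb16 (chr9:48654297-48836222, minus strand) alone brought in 14, and 7 cells held both. A single gate UMI carried 36 of the 59 cells, 9 cells held 2, 14 held 3 or more, and the highest cell held 9, so a majority of the members sat at the edge of the threshold, with the other gated cells at 0 just outside it. Among T cells left out for other reasons a gate UMI was seen in 22 of 1285 CD8 T cells (1.71%), whose median depth was 3650 UMIs in young and 2936 in aged meninges, in 5 of 69 cells with γδ receptor constant transcripts (7.25%) and in 1 Foxp3+ cell. By library, CD8 T cells with a gate UMI were 1.80% in young and 0.322% in aged meninges and 3.23% and 1.96% in young and aged choroid plexus, and γδ T cells with one were 4 of 19 (21.1%) in young and 0 of 24 in aged meninges. The lower share in aged than in young meninges was thus seen in the excluded cells as well, on 5 against 1 CD8 and 4 against 0 γδ T cells. NKT-like cells were 5.6% and 1.58% of the gated T cells of young and aged meninges, above the CD8 rate, but 0.474% and 0.573% in choroid plexus, below it. What the CD8 rate reflects was not tested, and neither was whether the choroid plexus shares differ from background. None of the cells without a Cd3 UMI (12 and 28 in young and aged meninges, 4 and 7 in young and aged choroid plexus) had one. Over all pairs of libraries 8 cell barcodes were shared, none of them between NKT-like cells.

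The cells were checked against markers that the gate did not use. Transcripts of the αβ TCR constant genes Trac, Trbc1 or Trbc2 were present in 38 of 39 cells (97.4%) in young and 14 of 15 (93.3%) in aged meninges. They were also present in 89.3% and 79.8% of the other gated and in 89.5% and 83.3% of the γδ T cells. Trac alone was in 82.1% and 33.3% of the NKT-like cells of young and aged meninges, against 51.3% and 48.7% of the other gated T cells. Cd4 was present in 23.1% and 20% of the NKT-like cells, against 36.7% and 33.4% of the other gated T cells, a difference within the intervals at these numbers (12 and 3 Cd4 UMIs). By the fold rule given below, Trac and Cd4 were called lower in aged meninges, beside 25.9% of all genes tested. Xcl1, which encodes the chemokine that draws cross-presenting dendritic cells, reached 305 CPM (the UMIs of a gene summed over the cells and scaled to 1 common total, 224 to 405) in young and 582 CPM (369 to 873) in aged meninges, against 48.7 and 90.7 CPM in the other gated T cells. Klrk1, which encodes the activating receptor NKG2D, reached 84.3 CPM (44.9 to 144) and 329 CPM (175 to 563), against 9.06 and 14.8 CPM. Both Xcl1 (chr1:164931644-164935527, minus strand) and Klrk1 (chr6:129610323-129623864, minus strand) were therefore above the other gated T cells in each meningeal library, with intervals that do not overlap. In aged meninges 1 cell held 11 of the 23 Xcl1 UMIs, and without it the level was 355 CPM. Xcl1 in either library and Klrk1 in young meninges did not set the cells apart from all other T cells. The γδ T cells of young meninges held 298 CPM of Xcl1 and 94.1 CPM of Klrk1, and CD8 T cells of aged meninges held 446 CPM of Xcl1, within the NKT-like interval. Klrk1 in aged meninges, on 13 UMIs, lay above CD8 T cells (124 CPM, 104 to 147) and γδ T cells (26.9 CPM, 3.26 to 97.3).

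The β chains of the NKT-like cells were skewed in young meninges. Each cell was given the Trbv gene with most of its Trbv UMIs, and in 21 of 39 cells (53.8%, 37.2 to 69.9) this was Trbv13-2, Trbv29 or Trbv1, compared with 127 of 657 other gated T cells (19.3%, 16.4 to 22.6) and 42 of 278 CD8 T cells (15.1%), while 8 of the 19 γδ T cells (42.1%, 20.3 to 66.5) did so too. Trbv13-2 led with 11 cells (28.2%, against 11.1% of the other gated cells), followed by Trbv1 with 6 cells (15.4%, against 6.70%) and Trbv29 with 4 cells (10.3%, against 1.52%). Trbv19 (10.5% of the other gated cells), Trbv31 (7.31%) and Trbv15 (4.57%) were dominant in no NKT-like cell of young meninges. In aged meninges 3 of 15 NKT-like cells (20%, 4.33 to 48.1) used 1 of the 3 NKT-associated segments, against 18.9% of 932 other gated cells, and 3 used Trbv13-3. The interval of the aged share takes in the value of the other gated cells and lies below the 53.8% of young meninges, whose own interval it overlaps.

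**Figure D2:**
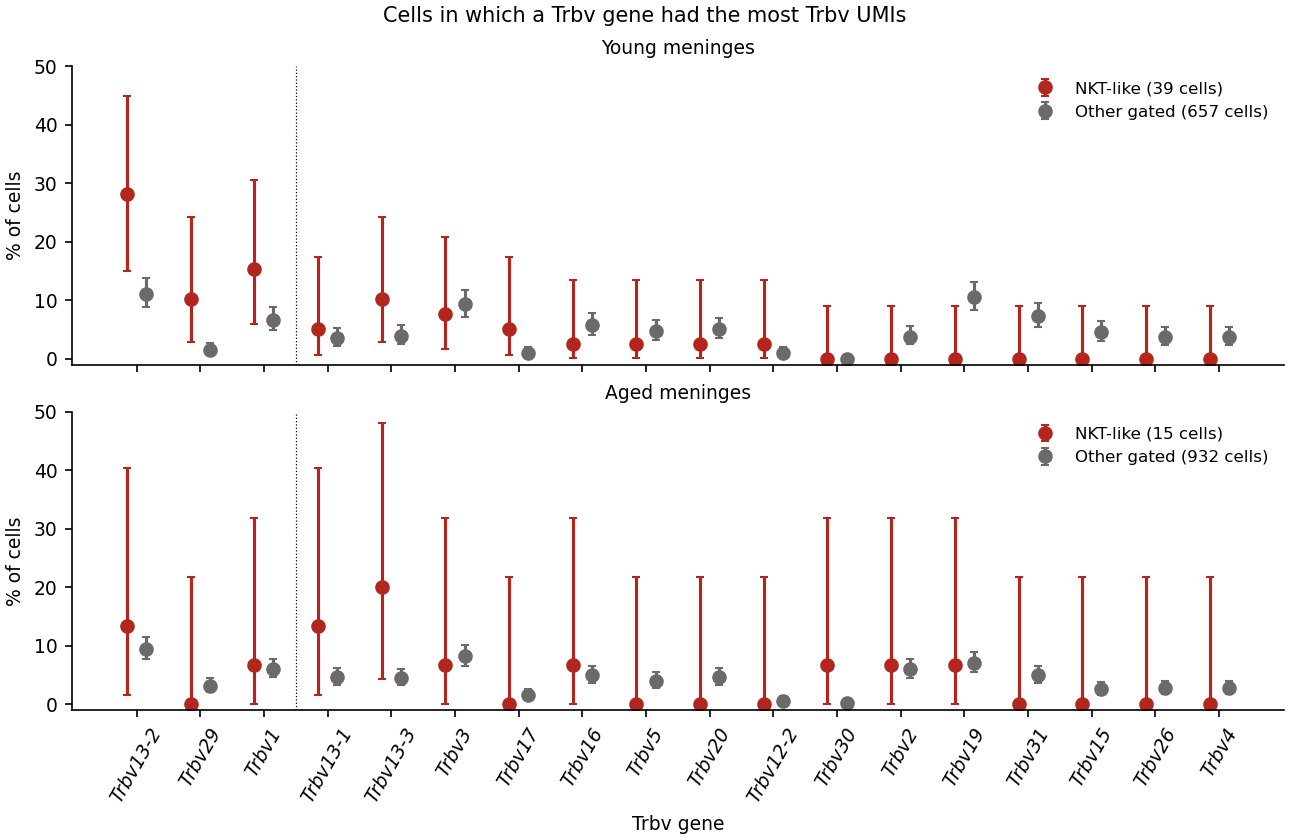
Percentage of NKT-like and other gated T cells of each meningeal library in which each Trbv gene held the most Trbv UMIs, with exact 95% binomial intervals. The 3 segments left of the dotted line account for 21 of 39 NKT-like cells in young meninges and 3 of 15 in aged meninges.

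For the α chain, fewer V transcripts were counted in young meninges than in the other gated T cells. No Trav UMI of any kind was found in 23 of 39 NKT-like cells (59%, 42.1 to 74.4) of young meninges, compared with 203 of 657 other gated cells (30.9%, 27.4 to 34.6). CD8 (39.9%, 34.1 to 45.9) and γδ T cells (42.1%, 20.3 to 66.5) of young meninges often lacked one too, with intervals that overlap that of the NKT-like cells. In aged meninges it was 8 of 15 (53.3%, 26.6 to 78.7), compared with 35.8%. Summed Trav transcripts stood at 266 CPM (191 to 361) in NKT-like cells of young meninges and at 632 CPM (598 to 667) in the other gated cells, whereas summed Trbv transcripts were close, at 2062 and 1884 CPM. After thinning, 79.5% (63.5 to 90.7) of NKT-like, 63.1% (59.3 to 66.8) of other gated and 70.5% (64.8 to 75.8) of CD8 T cells of young meninges had no Trav UMI, and 66.7 and 53.9% of NKT-like and other gated cells in aged meninges, so that the intervals overlap at equal depth. Whether the shared sequence of Trav11 took part in this was not tested.

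To find transcripts that set the NKT-like cells apart, their UMIs were summed per library and set against those of the other gated T cells, and a gene was called when the ratio of CPM, with 20 CPM added to each side, reached 2-fold (a log2 ratio of 1) with at least 20 UMIs on the higher side. In young meninges 74 of 4022 genes were called higher (1.84%) and 165 lower (4.10%). In aged meninges 12 of 4524 were called higher (0.265%) and 1171 lower (25.9%). In the 15 cells there 39518 UMIs were summed, and 0 UMIs of a gene still allow 75.9 CPM by the limit of 3 UMIs and 93.3 CPM by the exact interval, so that lower calls cannot be told apart from too few UMIs in many genes. Intervals did not overlap for 30 of those 1171 genes and for 93 of the 165 of young meninges, while they were apart for every gene called higher in either library.

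Only 8 genes were called higher in both meningeal libraries, 0.352% of the 2272 genes measured in both, a comparison chosen after seeing how few cells the choroid plexus held. They were Ly6c2, Cxcr6, Il2rb, Nkg7, Id2, Ctsw, Xcl1 and the V segment Trbv13-2. When the cell with most UMIs of a gene was left out for that gene, 4 of the 8 were still called in both libraries (Ly6c2, Cxcr6, Il2rb and Id2), while in aged meninges Xcl1 (12 of 23 UMIs left), Trbv13-2 (10 of 23), Ctsw (19 of 25) and Nkg7 (46 of 63, log2 ratio 0.87) were not. In young meninges 36 of the 74 higher genes were called again in this way, and in aged meninges 6 of the 12. With cells thinned to 1000 UMIs 4 genes were called, 2 of them among these 8, while the log2 ratios of Ly6c2, Xcl1, Id2 and Cxcr6 were then 4.14, 2.74, 2.44 and 2.33 in young and 4.22, 1.84, 1.69 and 1.36 in aged meninges. Ly6c2 (chr15:75108158-75111970, minus strand), a GPI-anchored surface protein of the Ly-6C group found on memory and innate-like lymphocytes, stood furthest out. It was at 2075 CPM in NKT-like and 161 CPM in other gated cells of young meninges (log2 ratio 3.53), and at 2708 and 108 CPM in aged meninges (log2 ratio 4.41). A Ly6c2 UMI was present in 31 of 39 (79.5%) and 11 of 15 (73.3%) NKT-like cells, against 7.76 and 7.30% of the other gated cells. At 1000 UMIs per cell these shares were 74.4 and 66.7%, against 5.07 and 5.30%. CD8 T cells were at 588 and 695 CPM, so Ly6c2 was higher in NKT-like cells than in CD8 T cells of either library as well, by its intervals. Its neighbour Ly6c1, close to it in sequence, had 182 CPM in NKT-like and 199 CPM in other gated cells of young meninges and 127 and 35.9 CPM in aged meninges, and how the authors' counting split reads between the pair is uncertain.

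The receptors among these genes are for a cytokine and a chemokine. Il2rb, the β chain shared by the IL-2 and IL-15 receptors, was at 940 CPM (793 to 1106) in NKT-like cells of young meninges against 154 CPM, a log2 ratio of 2.47. In aged meninges it was at 658 CPM (430 to 964) against 277 CPM, a log2 ratio of 1.19. Cxcr6, the receptor for CXCL16 that holds T cells in tissues, was at 947 against 171 CPM (log2 ratio 2.34) in young and 810 against 269 CPM (log2 ratio 1.52) in aged meninges. Cxcr6 was also high in γδ T cells, at 627 CPM (448 to 854) in young and 431 CPM (295 to 608) in aged meninges, with intervals that overlap those of the NKT-like cells (799 to 1113 and 554 to 1143). From young to aged meninges the NKT-like level of each was lower, with intervals that overlap, and the level in the other gated T cells was higher.

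Nkg7 and Ctsw belong to cytotoxic granules, as a granule membrane protein and a cathepsin. Nkg7 was at 1147 against 161 CPM (log2 ratio 2.69) in young and 1594 against 736 CPM (log2 ratio 1.09) in aged meninges, and CD8 T cells held 793 and 2306 CPM. Ctsw was at 622 against 166 CPM (log2 ratio 1.78) and 633 against 256 CPM (log2 ratio 1.24), and γδ T cells of young (705 CPM) and CD8 T cells of aged meninges (569 CPM) were within its NKT-like intervals. The granzymes and perforin did not follow them. Gzma, Gzmb, Gzmk and Prf1 had 6, 2, 1 and 3 UMIs in the 39 NKT-like cells of young meninges and 1, 3, 4 and 0 UMIs in the 15 of aged meninges, where Gzmk was called lower at 101 CPM (27.6 to 259) against 270 CPM (249 to 293), with intervals that overlap. Of the 16 genes of the cytotoxic granule and death ligand list, 7 were measured in young meninges, with 3 higher (Nkg7, Ctsw and the lysosomal protease Ctsd) and 1 lower (the lysosomal membrane protein Lamp1), beside 1.84% higher and 4.10% lower over all genes tested. The median log2 ratio of the list was 0.34, against -0.23 over all genes tested. In aged meninges 6 were measured, with 2 higher (Nkg7 and Ctsw) and 1 lower (Gzmk), beside 0.265% and 25.9%, and a median of -0.44 against -0.68.

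**Figure D3:**
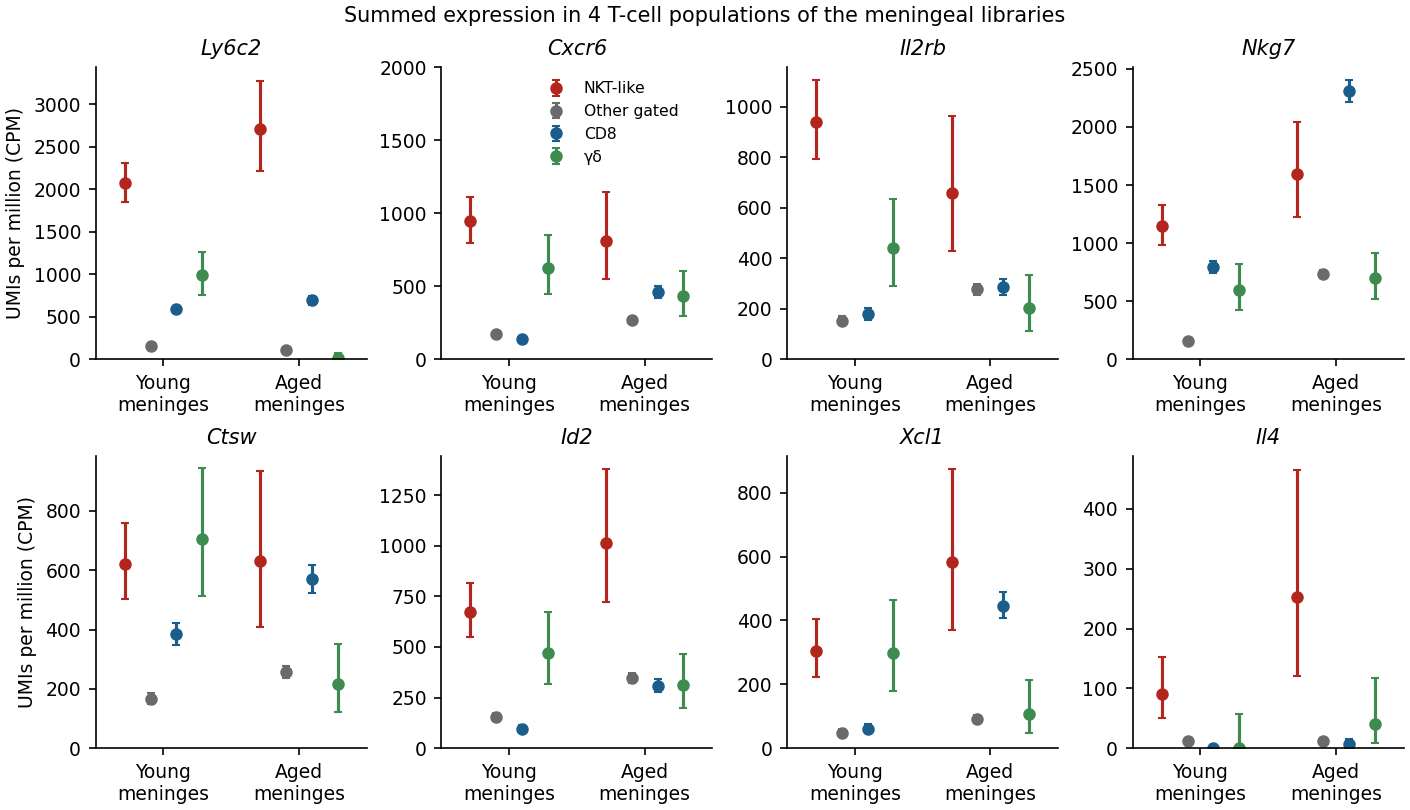
Summed expression (CPM) of 8 genes in NKT-like, other gated, CD8 and γδ T cells of young and aged meninges, with exact 95% Poisson intervals that cover counting error. Ly6c2 in NKT-like cells lies at 2075 and 2708 CPM, above the other 3 populations in both libraries, whereas Nkg7 of aged CD8 T cells lies above that of NKT-like cells.

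Among the lineage transcription factors, Id2, the E-protein inhibitor that innate-like lymphocytes need, was at 674 against 154 CPM (log2 ratio 2.0) in young and 1012 against 345 CPM (log2 ratio 1.5) in aged meninges. The γδ T cells of young meninges held 470 CPM of Id2 (317 to 671), which overlaps the NKT-like interval (551 to 817). Tbx21, which encodes T-bet, the master factor of type 1 responses, was at 136 CPM (84.3 to 208) against 22.4 CPM in young meninges, with a UMI in 17 of 39 cells (43.6%) against 4.87%. In aged meninges it had 3 UMIs, 75.9 CPM (15.7 to 222) against 32.3 CPM. Of the 7 listed innate-like factors measured in young meninges, 3 were higher (Id2, Tbx21 and Bhlhe40, a regulator of cytokine genes) and 1 lower (Id3), beside 1.84% and 4.10% of all genes tested, with a median log2 ratio of 0.86 against -0.23. In aged meninges 1 of 10 was higher (Id2) and 5 lower (Gata3, Maf, Nfil3, Tox and Prdm1), beside 0.265% higher and 25.9% lower over all genes tested, with a median of -0.90 against -0.68 over all genes tested. Gata3 and Tox were at 0 UMIs there, with an exact interval up to 93.3 CPM that takes in the 87.5 and 91.1 CPM of the other gated T cells.

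Type 1 genes were called in young meninges against all other gated T cells, most of which had a UMI of Ccr7 or Lef1. Of the 7 type 1 markers 6 were measured there and all 6 were higher, namely Tbx21, Ifng, Cxcr3, Il2rb, Klrd1 and Xcl1, with a median log2 ratio of 2.12, beside 1.84% of genes higher and a median of -0.23 over all genes tested. With cells free of Ccr7 and Lef1 UMIs on both sides 4 were measured and 2 called (Il2rb and Klrd1), beside 1.14%, with Ifng at 64.0 against 58.5 CPM and Cxcr3 at 341 against 305 CPM. Tbx21 and Ifng fell below 20 UMIs without the cell that held most of each. In aged meninges 3 were measured and 2 were higher (Il2rb and Xcl1), with a median of 1.19, beside 0.265% and -0.68. Il12rb2, the signalling chain of the IL-12 receptor, stayed below 20 UMIs and had 38.9 against 5.25 CPM in young and 127 against 2.69 CPM in aged meninges. Cxcr3, a receptor for interferon-induced chemokines, was higher in young meninges at 253 against 84.0 CPM, whereas both sides were close in aged meninges at 304 and 281 CPM. Ifng was at 130 CPM (79.2 to 200) against 17.6 CPM in young meninges, with all 20 UMIs in 6 cells, and at 75.9 CPM (15.7 to 222) against 111 CPM in aged meninges.

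Il4 transcripts marked a share of the cells too. The 14 Il4 UMIs of young meninges lay in 11 of 39 cells (28.2%) and gave 90.8 CPM (49.6 to 152), against 11.4 CPM (7.33 to 17) in the other gated cells. The 10 UMIs of aged meninges lay in 5 of 15 cells (33.3%) and gave 253 CPM (121 to 465) against 11.2 CPM (7.26 to 16.6). With fewer than 20 UMIs the gene was not called in either library, although the intervals lie apart in both. CD8 T cells held 0 and 7.63 CPM. At 1000 UMIs per cell only 2 of 39 and 0 of 15 cells kept an Il4 UMI, so the share of cells depends on depth. Of the other type 2 genes, Gata3 was at 51.9 against 37.7 CPM in young meninges. In aged meninges 6 of the 7 type 2 markers were at 0 UMIs, which allows up to 75.9 CPM. At this depth the aged cells therefore do not show whether those markers accompany Il4. Il4 and Ifng were found together in 3 of the 59 cells.

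Of the 20 listed cytokines and chemokines, 10 were measured in young meninges, with 4 higher (Ifng, Tnf, Xcl1 and Ccl5) and 1 lower (Ccl1), beside 1.84% and 4.10% of all genes tested. In aged meninges 9 were measured, with 2 higher (Xcl1 and Ccl4) and 2 lower (Il2 and Il17a), beside 0.265% and 25.9% of all genes tested, and a median log2 ratio of -0.45 against -0.68. Il2 and Il17a were at 0 UMIs there, which allows up to 75.9 CPM, against 40.9 and 155 CPM in the other gated T cells, so that for Il2 a difference was not detectable at this depth. Ccl5, a chemokine of memory and cytotoxic cells, was at 1958 against 784 CPM in young and 6883 against 4163 CPM in aged meninges. In young meninges 1 cell held 109 of its 302 UMIs, and without that cell the log2 ratio was 0.69, short of a call. In aged meninges 1 cell held 82 of its 272 UMIs. CD8 T cells there held 12796 CPM, above the NKT-like cells. Ccl4 was called higher in aged meninges, but 1 cell held 35 of its 38 UMIs. Of 16 cytokine receptors 7 were measured in young meninges, where Il2rb and the IFN-γ receptor chain Ifngr1 (804 against 219 CPM) were higher and Il7r, the IL-7 receptor chain of naïve and memory T cells, was lower (370 against 851 CPM), beside 1.84% and 4.10% of all genes tested. In aged meninges 1 of 10 was higher (Il2rb) and 3 were lower (Il18r1, Il1rl1 and Il21r, each at 0 UMIs), beside 0.265% and 25.9%, with a median log2 ratio of -0.82 against -0.68. The IL-18 receptor genes Il18r1 and Il18rap had 16 and 10 UMIs in young meninges, at 104 against 29.6 CPM and 64.8 against 11.4 CPM.

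Of the 21 listed NK cell receptors of the lectin family, to which the gate gene Klrb1c also belongs, 2 were measured in young meninges and both were higher, beside 1.84% of all genes tested, and none was measured in aged meninges. Klrk1, with 13 UMIs in each library, was below the minimum for a call. The members called were Klrd1 (CD94) and Klrc1 (NKG2A), which form an inhibitory receptor for the non-classical MHC molecule Qa-1, at 220 against 19.6 CPM and 156 against 3.34 CPM. In aged meninges they had 5 and 6 UMIs, 127 against 27.4 CPM and 152 against 6.28 CPM, below the minimum for a call. CD8 T cells held 179 CPM of Klrd1 in each library, within the NKT-like intervals, and 31.2 and 42.9 CPM of Klrc1. Summed over the 21 listed lectin receptors, NKT-like cells stood at 616 CPM against 51.0 CPM in young and at 1164 against 89.3 CPM in aged meninges, with a UMI in 18 of 39 and 11 of 15 cells. The list had 9 and 11 members at 0 UMIs. Cd160, an NK-type receptor for HVEM, was higher in young meninges at 136 against 2.38 CPM, with 10 of its 21 UMIs in 1 cell. In aged meninges it had 4 UMIs, 101 CPM (27.6 to 259), and CD8 T cells held 71.6 CPM, within that interval.

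Genes of naïve and recirculating T cells were low. Of the 13 listed, 8 were lower in young meninges, among them Ccr7 (the lymph node homing receptor), Lef1 and Tcf7 (factors of resting T cells), S1pr1 (the egress receptor) and Igfbp4, beside 4.10% lower over all genes tested, with a median log2 ratio of -1.81 against -0.23. Ccr7 was at 90.8 CPM (49.6 to 152) against 634 CPM (600 to 669), and Igfbp4 at 71.3 CPM (35.6 to 128) against 673 CPM (638 to 709). Klf2, the factor that drives S1pr1, was at 765 against 1188 CPM, short of a call. In aged meninges 11 were measured and 4 were called lower (Ccr7, Tcf7, Igfbp4 and Bach2), beside 25.9% lower over all genes tested, with a median of -0.82 against -0.68. There Ccr7 and Igfbp4 were at 0 UMIs, with an exact interval up to 93.3 CPM that takes in the 81.3 and 88.0 CPM of the other gated T cells, so a difference was not detectable at this depth.

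**Figure D4:**
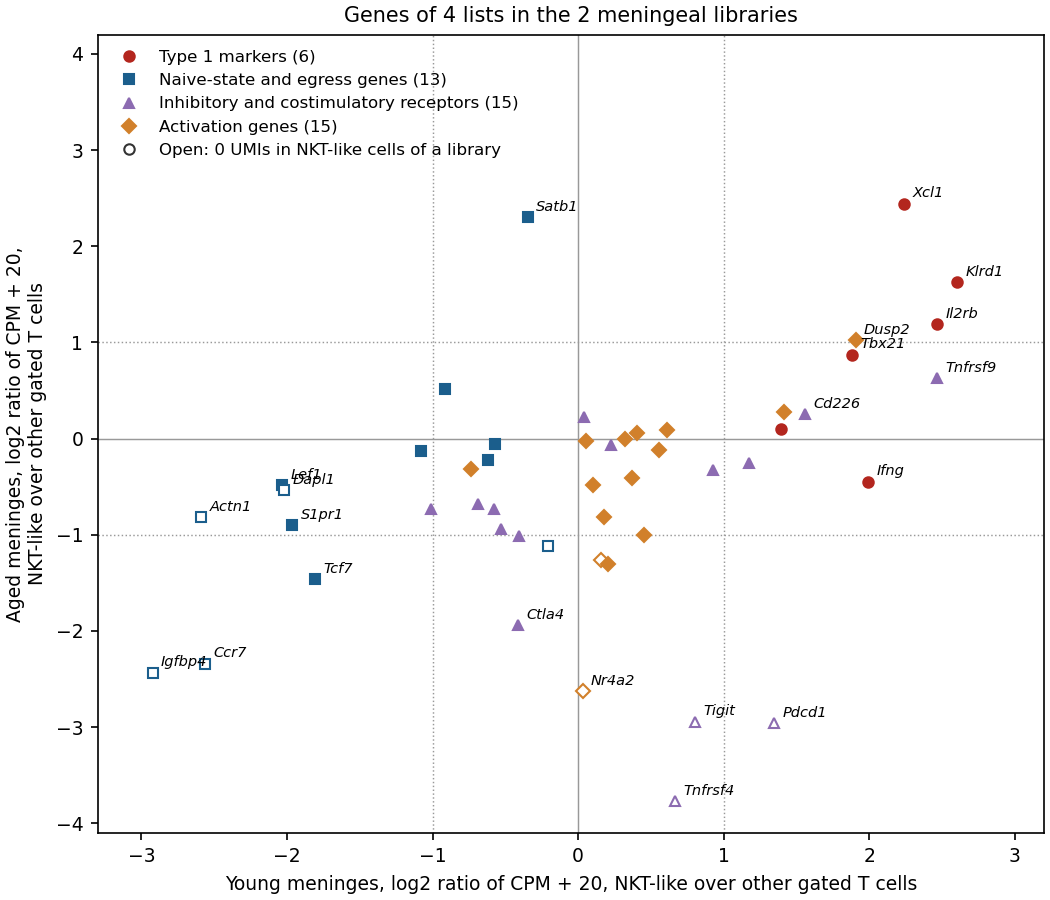
Log2 ratio of NKT-like over other gated T cells (CPM + 20) in young (horizontal) and aged (vertical) meninges for the genes of 4 lists with at least 20 UMIs on either side in each library; open symbols had 0 UMIs in the NKT-like cells of a library, dotted lines mark the 2-fold limits. Type 1 markers lie to the right, with Ifng below 0 (-0.45) and Cxcr3 near 0 (0.10) in aged meninges, and the called naïve-state genes lie to the left.

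Most other gated T cells of young meninges had a UMI of Ccr7 or Lef1. The comparison was repeated with cells that had no UMI of Ccr7 or Lef1 on either side, 27 against 147 cells in young and 13 against 742 in aged meninges. In young meninges 25 of 2184 genes were then higher (1.14%) and 201 lower (9.20%), compared with 74 and 165 before, and in aged meninges 12 (0.293%) and 1347 (32.9%) of 4099. Of the 8 genes called in both libraries, 4 were again called in both, namely Ly6c2 (log2 ratios 2.28 and 4.33), Cxcr6 (1.21 and 1.20), Il2rb (1.52 and 1.08) and Nkg7 (1.26 and 1.05). Ctsw and Id2 fell just short in young meninges (0.99 and 0.93) and Trbv13-2 just short in aged meninges (0.95). Xcl1 was at 309 CPM (207 to 444) against 162 CPM (128 to 204) in young meninges, a log2 ratio of 0.85, and at 499 CPM (291 to 800) against 100 CPM (85.8 to 117) in aged meninges. Of the lists called in young meninges, the cytokines and chemokines went from 4 of 10 higher to 0 of 7 with 4 lower (Csf2, Ccl3, Ccl4 and Ccl1), with Ccl5 at 2719 against 2628 CPM, and the innate-like factors from 3 of 7 to 0 of 4. The cytotoxic list kept 1 higher gene of 7 (Nkg7) and had 2 lower (Gzmk and Lamp1), with a median log2 ratio of -0.19. The residency list kept 2 of 11 (Cxcr6 and Itgal) and had 2 lower (Itga4 and S100a4), with a median of -0.38. The inhibitory and costimulatory list kept 1 of 10 (Cd226) and had 1 lower (Cd5), with a median of -0.29. Over all genes tested the median was -0.27. Of 7 cytokine receptors 2 were higher (Il2rb and Ifngr1) and 1 lower (Il7r). Of 10 activation genes 2 were higher (Dusp1 and Dusp2) and 0 lower, and the 1 lectin receptor measured was higher (Klrd1). Of the naïve-state genes 7 were measured and 4 were lower (Tcf7, S1pr1, Igfbp4 and Foxp1). In young meninges the log2 ratios of 7 of the 8 genes were lower than in the comparison of all gated cells, and that of Trbv13-2 was not.

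Genes lower in both meningeal libraries numbered 58 (2.55%), of which 7 also had intervals apart in both (0.308%), namely Ass1, Cytip, Gpr183, S100a4, Tspan13, the V segment Trbv15 and Hbb-bs. Gpr183, an oxysterol receptor that positions lymphocytes in lymphoid organs, was at 25.9 CPM against 121 CPM in young meninges and at 0 UMIs against 145 CPM in aged meninges. S100a4, a calcium-binding protein of motile memory T cells, was at 25.9 against 135 CPM and at 50.6 against 335 CPM. The haemoglobin gene Hbb-bs rested on 1 cell among the other gated T cells of each library, which held 384 of 413 UMIs in young and 537 of 641 in aged meninges.

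Of 23 residency and migration genes, 10 were measured in young meninges with 4 higher (Cxcr3, Cxcr6, the LFA-1 chain Itgal and S100a6) and 1 lower (S100a4), beside 1.84% and 4.10% of all genes tested, and a median log2 ratio of 0.62 against -0.23. In aged meninges 1 of 11 was higher (Cxcr6) and 2 were lower (Cd44 and S100a4), beside 0.265% and 25.9%, with a median of -0.62 against -0.68. Cd69, an early activation and retention marker, was at 38.9 against 78.2 CPM in young meninges and the integrin gene Itgae had 1 UMI. Of 12 inhibitory and costimulatory receptors measured, Cd160, Cd226, Tnfrsf9 and Tnfrsf18 were higher in young meninges and Cd5 was lower, beside 1.84% and 4.10% of all genes tested, with a median log2 ratio of -0.18 against -0.23. A single cell held 14 of the 25 Tnfrsf9 UMIs, and the others would not reach the minimum for a call. In aged meninges 0 of 13 were higher and 6 lower (Pdcd1, Ctla4, Lag3, Tigit, Cd27 and Tnfrsf4, 4 of them at 0 UMIs), with a median of -0.94. Over all genes tested there 0.265% were higher and 25.9% lower, and the median was -0.68. Tnfrsf4, which encodes the costimulatory receptor OX40, had 0 UMIs there, which allows up to 75.9 CPM, against 253 CPM in the other gated T cells. The signalling genes of the SLAM and SAP group, which NKT cells need to develop, had 0 of 5 called in young meninges. This stood beside 1.84% higher and 4.10% lower over all genes tested, with a median of -0.09 against -0.23. In aged meninges 0 of 6 were higher and 2 lower (Slamf6 and Cd48), beside 0.265% and 25.9%, with a median of -0.70 against -0.68. Of the 15 activation genes 11 were measured, with the phosphatase genes Dusp1 and Dusp2 higher and none lower in young meninges, beside 1.84% and 4.10% of all genes tested, and a median log2 ratio of 0.37 against -0.23. In aged meninges 0 of 12 were higher and 4 lower (Nr4a2, Fosb, Jun and Zfp36), beside 0.265% and 25.9%, with a median of -0.44 against -0.68.

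Markers of other cells were looked up in the same profiles. Of the 8 NK cell markers, 5 were at 0 UMIs in young and 4 in aged meninges, among them Ncr1 in both, and the list held 10 UMIs (64.8 CPM against 5.25 CPM) and 16 UMIs (405 CPM against 41.7 CPM), of which Klre1 made up 7 and 8 and Fcer1g 2 and 5. The 10 type 17 markers had 6 and 8 members at 0, Il17a among them, and 23 and 11 UMIs in all, led by Tmem176b and Tmem176a. The γδ markers besides the gate held 14 UMIs (90.8 CPM against 15.3 CPM) and 3 UMIs (75.9 CPM against 15.3 CPM), of which Trgv2 made up 12 UMIs in young meninges. Fibroblast and choroid plexus epithelium markers were at 0 in all NKT-like cells. The B cell list held 50 UMIs in young meninges (324 CPM against 237 CPM), and here 1 cell stood out with 11076 UMIs, 16 of 16 Cd79a UMIs and 76 of 77 Cd74 UMIs, beside 13 Cd3e and 11 Cxcr6 UMIs. Scrublet had not marked it as a doublet, and without it the same 8 genes were called higher in both meningeal libraries. Without it 68 genes were lower in both libraries (54 of them among the 58 called with it), and between aged and young meningeal cells the same 7 were higher and 105 were lower (99 of them among the 111 called with it). The part of the NK, type 17 and γδ transcripts in the differences was not tested.

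Values were also taken by the gate gene a cell showed, as a description only, since this split uses the UMIs that chose the cells. In young meninges the 25 cells with Klrb1c alone and the 10 with Zbtb16 alone both carried Il2rb (92 and 80% of cells) and Cxcr6 (72 and 60%). Nkg7 was found in 24 of 25 (96%) and in 5 of 10 (50%) cells, and Xcl1 in 13 (52%) and 3 (30%). Ccr7 or Lef1 was present in 4 of the 25 cells with Klrb1c alone (16%, 4.54 to 36.1) and in 6 of the 10 with Zbtb16 alone (60%, 26.2 to 87.8). The NKT-associated Trbv genes had a UMI in 15 of 25 and in 6 of 10 cells, 60% of each, and in 4 of the 4 cells with both gate genes. The intervals of the naïve genes overlap, and the cell with B cell transcripts was one of those with Zbtb16 alone.

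**Figure D5:**
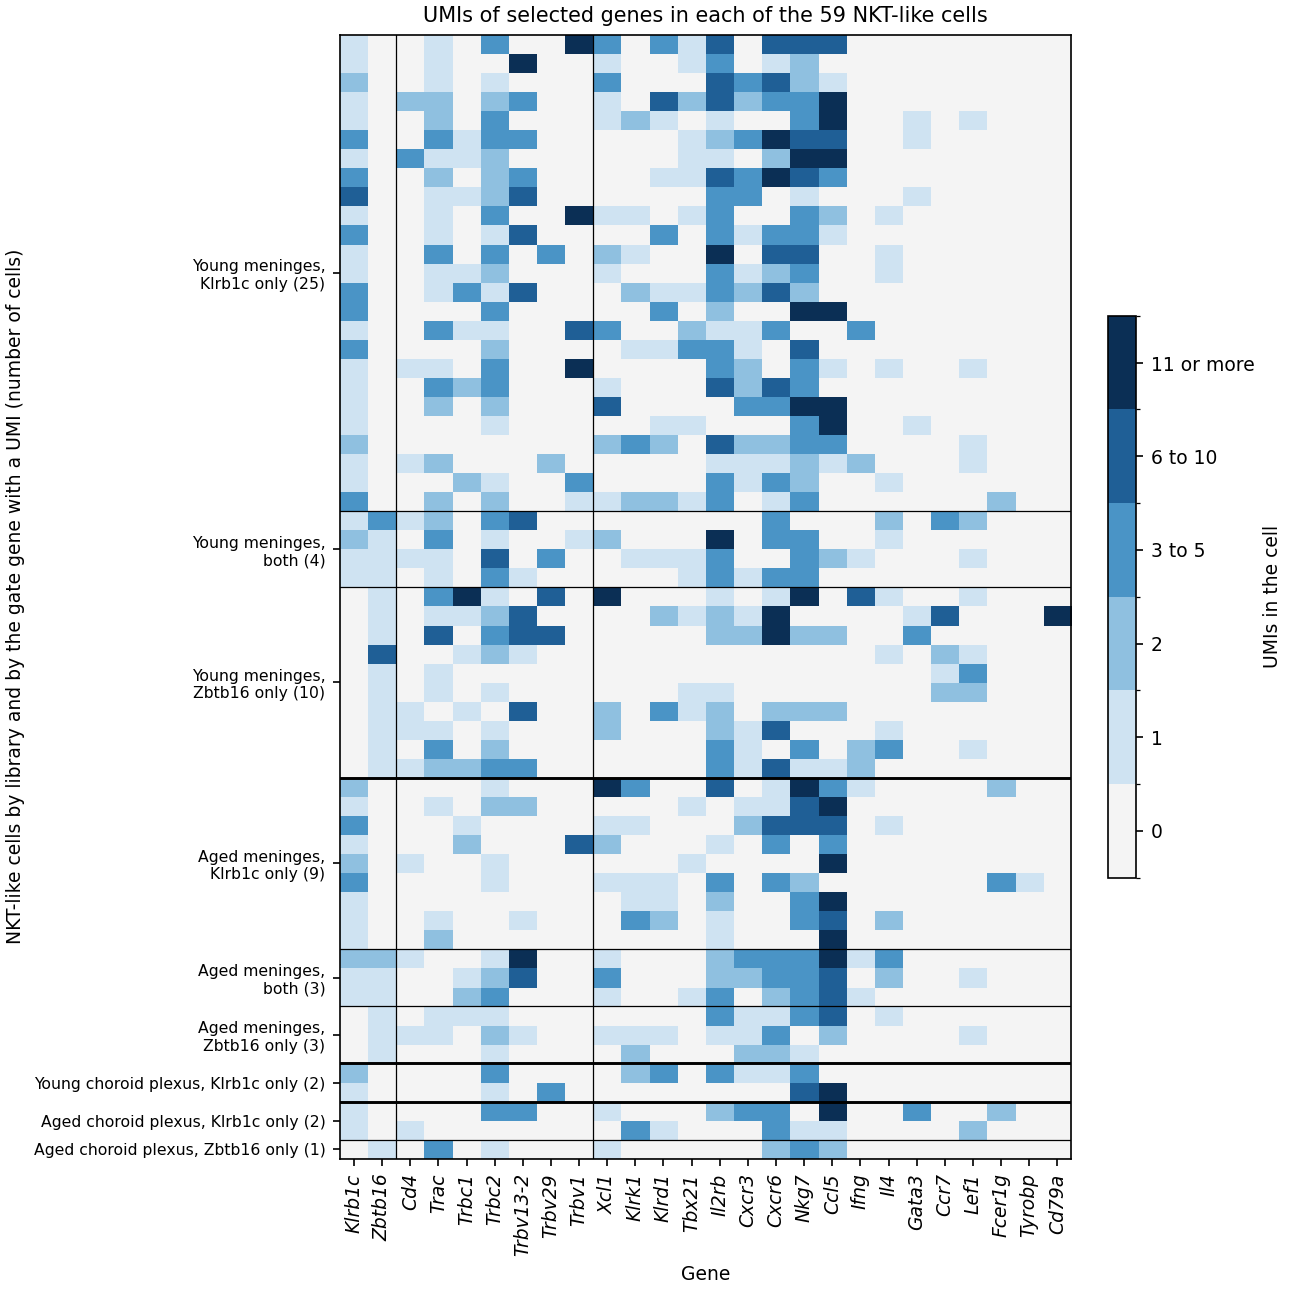
UMIs of selected genes in each of the 59 NKT-like cells, by library and by the gate gene that brought the cell in; darker fields hold more UMIs. Il2rb, Nkg7 and Cxcr6 have UMIs in most cells (47, 47 and 42 of 59), Tbx21 and Il4 in fewer (20 and 16).

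The choroid plexus cells were too few to describe as a population. Ly6c2 had 13 UMIs in the 2 cells of young and 22 in the 3 cells of aged choroid plexus, 3027 and 2715 CPM against 125 and 101 CPM in the other gated cells. The γδ T cells of young choroid plexus held 1673 CPM (1246 to 2200), which overlaps the NKT-like interval (1612 to 5176). In aged choroid plexus they held 571 CPM (421 to 757), below the NKT-like interval (1701 to 4110). Id2 had 6 and 16 UMIs, and Nkg7 had UMIs in both young cells and in 2 of the 3 aged cells, whereas Ccr7 had none in any of the 5. By the fold rule 1 of 4215 genes was higher (0.0237%) and 3363 were lower (79.8%) in young choroid plexus, and 2 (0.0425%) and 3278 (69.6%) of 4711 in aged choroid plexus. With 4295 and 8104 UMIs in all, 0 UMIs still allow 698 and 370 CPM, so lower calls cannot be told apart from too few UMIs. Over all 4 libraries 0 of 929 genes were higher (0%) and 26 were lower (2.80%). Between the 3 aged and 2 young choroid plexus cells 29 of 72 genes were higher in aged cells (40.3%), 15 with intervals apart (20.8%), and 1 was lower (1.39%), a contrast of single cells that is not read further.

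Between aged and young NKT-like cells of the meninges, 7 of 793 genes were higher in aged cells (0.883%) and 111 lower (14.0%), and intervals were apart for 6 (0.757%) and 11 (1.39%) of them. These counts depend on the minimum of 20 UMIs, which is 506 CPM in the aged but 130 CPM in the young cells. Without it 903 genes were higher and 1262 lower, and after thinning 4 and 17 (1 and 3 of them shared), so the split between higher and lower genes is not read. Ccl5 was at 6883 CPM (6089 to 7751) in aged and 1958 CPM (1743 to 2192) in young cells, a log2 ratio of 1.80, and the other gated T cells moved the same way from 784 to 4163 CPM. A single cell held 82 of the 272 Ccl5 UMIs of the aged cells, and another 109 of the 302 of the young cells. Serpina3g, a serine protease inhibitor with close copies in the genome, had 20 UMIs in 6 of 15 aged cells (506 CPM), 9 of them in 1 cell. It had 0 UMIs in the 39 young cells, which allows up to 19.4 CPM. The other gated T cells moved the same way for this gene, from 16.7 to 111 CPM. The tetraspanin Cd82 (633 against 207 CPM) and the G-protein subunit Gnai2 (734 against 253 CPM) were higher as well, and the other gated T cells moved the same way, from 198 to 417 CPM for Cd82 and from 305 to 577 CPM for Gnai2. The 8 genes called higher against the other gated T cells in both meningeal libraries were in neither group of calls, with Ly6c2 at 2708 against 2075 CPM, Xcl1 at 582 against 305 CPM and Il2rb at 658 against 940 CPM. Among the lower genes, Cd74 rested on the cell with B cell transcripts. Nme1, a nucleotide kinase of growing cells, was at 25.3 against 227 CPM, and the stress-induced mTOR inhibitor Ddit4 at 25.3 against 201 CPM. Both had 1 UMI in the aged cells, and the intervals of Ddit4 overlap (0.641 to 141 and 137 to 285 CPM). From young to aged meninges the other gated T cells went from 110 to 52.5 CPM for Nme1 and from 104 to 98.8 CPM for Ddit4.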

How the data were processed

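The authors sorted the T cells by FACS, built 5′ droplet libraries and processed the reads with Cell Ranger. The deposited values are raw UMI counts of 31053 genes in single cells, not normalized. The header of the matrices names Cell Ranger 3.1.0, whereas the submitters' processing notes name Cell Ranger 5.1.0, STAR and the build mm10. In meninges the young and aged libraries held 3737140 and 4262917 UMIs, in choroid plexus 2295950 and 3957717. The stated limits on genes and mitochondrial UMIs were applied here and left 1035 and 1436, and 631 and 1106 cells.

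Members and gene lists were chosen with earlier results of these data known. UMIs of the NKT-like and the other gated T cells of each library were summed to CPM and compared by the fold rule, leaving out genes of the gate. Shares have exact Clopper-Pearson and CPM exact Poisson 95% intervals. For a difference between shares the distances to the Clopper-Pearson limits of both shares were squared, added and put under a root, which is approximate. No p-value was taken from cells. Shares of cells were also taken after drawing 1000 UMIs per cell. Genes with 0 UMIs were given the limit that 3 UMIs set. No doublets were removed, and Scrublet marked 16 and 0 meningeal and 22 and 5 choroid plexus cells (young and aged), 2 of them NKT-like. Named genes were the markers, listed genes with at least 20 UMIs or the defining ones near 0, and the ranked genes of each comparison, without receptor, mitochondrial and ribosomal protein genes. The comparison of both meningeal libraries, the requirement of intervals apart, the gate on Klrb1c alone, the omission of the cell with B cell transcripts and that of the cell with most UMIs of a gene were added after seeing the data, and the V segments, Ly6c1, Gzmk, Gata3, Tox and the genes named beside them were chosen after their values were seen. Some listed genes are not reported here. Alternatives were the added CPM, the UMI minimum, scaling by the median of ratios, thinning, doublet calls, the mitochondrial limit, a stricter gate and cells without Ccr7 or Lef1. Positions and sequences came from GENCODE vM21 (GRCm38), in which 31011 of 31053 feature identifiers were found. The fold rule was tried on simulated Poisson counts, which leave out the gathering of UMIs in single cells. The gate, thinning and V gene assignment were not part of that simulation. Calculations used Python 3.11.15, numpy 2.4.6, scipy 1.17.1, pandas 2.3.3, scanpy 1.11.5, anndata 0.12.19 and matplotlib 3.10.9.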

Additional observations from a re-analysis of the deposited data

How the results depend on the processing

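Young meninges kept the highest share of NKT-like cells under each alternative, with 2.18% after thinning and 1.47% with at least 2 gate UMIs, where aged meninges had 0.497% and aged choroid plexus 0 in both. The difference between aged and young meninges was then -1.35 and -0.969 points. Genes higher in both meningeal libraries numbered 8 in the reported form, 55 without the UMI minimum (8 shared), 4 after thinning (2 shared), 4 without Ccr7 or Lef1 (4 shared) and 4 when each gene was taken without the cell with most of its UMIs (4 shared). Genes lower in both numbered 58 in the reported form, 15 with 50 CPM added (15 shared), 266 after thinning (37 shared), 130 without cells with Zbtb16 alone (53 shared) and 7 with intervals apart. Without Ccr7 or Lef1 they numbered 68, of which 25 were shared. Over all 4 libraries 10 genes were higher without the minimum (0 reported), and 5 (50 CPM), 67 (thinned) and 11 (without Ccr7 or Lef1) were lower (26 reported). Between aged and young meningeal cells, 7 were higher in the reported form, 903 without the minimum (7 shared) and 4 after thinning (1 shared). Genes lower there numbered 111 in the reported form, 67 with 50 CPM added (67 shared), 1262 without the minimum (111 shared), 17 after thinning (3 shared), 60 without Ccr7 or Lef1 (27 shared) and 11 with intervals apart. In the choroid plexus 29 genes were higher, 1650 without the minimum, 17 with the median of ratios, 8 after thinning and 15 with intervals apart, and 1 was lower, 1272, 2 and 3 without the minimum, with the median of ratios and without Ccr7 or Lef1. Thinning leaves fewer UMIs for the same minimum. No difference in the share of NKT-like cells between libraries reversed. Some list medians of young meninges, however, turned from positive to negative without Ccr7 or Lef1. They were then -0.38 for residency and migration, -0.53 for innate-like factors, -0.19 for the cytotoxic list and -0.09 for activation genes. Over all genes tested the median was then -0.27. Single genes of the NKT-like comparison stayed within their counting intervals in 308 of 350 values and moved in 42, those of aged against young cells moved in 9 of 90, and shares of cells with a UMI moved in 9 of 24. The 15 aged meningeal cells and the 5 choroid plexus cells limit every statement on them. No paired analysis was possible because each group had 1 library.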
